A study of Mus musculus with 12 samples.

Results

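The livers described here were divided by their own level of Dbp, the transcript of D-box binding protein, a clock-controlled transcription factor. Of 12 mouse liver RNA-seq libraries, the 4 with Dbp at 20 FPKM or more (the authors' unit, fragments scaled to gene length and library size) are called the libraries with high Dbp, and the other 8 are called the libraries with low Dbp. The members were chosen by the measured FPKM of Dbp in these same libraries, so everything compared across this division is a description and carries no test. The lowest of the 4 libraries with high Dbp stood at 34.14 FPKM and the highest of the 8 with low Dbp at 5.03 FPKM, a ratio of 6.79, and no library lay between them.

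All mice were of strain 129/B6, aged 10 months, and had spent 8 months on an LF or an HF diet (the labels' names). They carried a floxed TSP1 gene (genotype label WT), or lacked TSP1, the matrix protein thrombospondin 1, specifically in macrophages; the Cre driver of the knockout is not given in the sources used here. Both genotypes on both diets give 4 groups of 3 libraries, and a library is named by its diet, genotype and replicate number, as in HF knockout 1. Dbp was high in LF floxed 2 and 3, LF knockout 1 and HF knockout 1, so that LF floxed held 2 high and 1 low library, both knockout groups held 1 high and 2 low, and all 3 HF floxed libraries were low. The hour of collection and the feeding state of the animals were not given in the sources used here.

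In liver, as in most tissues, daily rhythms come from a feedback loop of transcription factors. BMAL1 (from Arntl) pairs with CLOCK or NPAS2 and activates genes through E-boxes, among them the Per and Cry genes, whose proteins repress the pair, and Nr1d1 and Nr1d2, whose REV-ERB proteins repress Arntl and Npas2 through ROR elements. Dbp, Tef and Hlf, the PAR bZIP factors, are driven by the loop and activate their own targets through D-boxes, and the repressor Nfil3 competes for the same sites, so that the Arntl arm and the Dbp arm of the loop peak in opposite parts of the day.

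The libraries held 16131506 to 16536016 estimated counts, of which 13336969 to 15080378 fell in named genes. After a filter on low counts, 12587 genes were compared. LF knockout 2 and 3 were near-identical (their variance was 2.89 times counting noise), as were HF floxed 1 and 2 (9.32 times), while the next closest pair stood at 32.1 times. Both pairs differed beyond counting noise and all 4 of these libraries have low Dbp; they were kept as separate libraries, and averaged in an alternative. HF knockout 2, also of low Dbp, stood apart from the rest, with correlations of log2 CPM (counts scaled to library size) as low as 0.826. The labels number replicates without naming animals, so p-values for diet and genotype measure the spread between libraries, which may be technical in part. Thbs1, which encodes TSP1, stood at 0.06 to 0.75 FPKM in floxed and 0.08 to 1.63 FPKM in knockout libraries (log2 difference 1.57, SE 0.55, adjusted p = 0.994 by edgeR). A deletion in macrophages leaves the gene in the other liver cells, so these whole-liver values do not check the genotype labels.

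Promoter sequences are shown first, for 4 clock genes whose levels did not overlap between the 4 and the 8 libraries, because they carry the elements through which the 2 arms of the loop are known to act. The windows are those of the RefSeq promoter table (build GRCm38.p6, 250 bases before to 50 bases after a start site, 300 in all), not of the build named for the files. Ciart, which encodes the repressor CHRONO, held 3 copies of the E-box CACGTG, which begin 116, 58 and 44 bases before the start (chr3:95882179-95882478, minus strand, E-boxes in capitals).
Ciart: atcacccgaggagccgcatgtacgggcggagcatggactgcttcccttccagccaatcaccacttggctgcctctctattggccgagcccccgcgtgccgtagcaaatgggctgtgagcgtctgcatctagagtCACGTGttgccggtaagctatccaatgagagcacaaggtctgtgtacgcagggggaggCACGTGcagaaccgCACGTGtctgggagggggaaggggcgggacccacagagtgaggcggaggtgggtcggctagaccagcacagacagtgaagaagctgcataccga
Tef held 1 E-box, 127 bases before the start (chr15:81802423-81802722, plus strand, E-box in capitals).
Tef: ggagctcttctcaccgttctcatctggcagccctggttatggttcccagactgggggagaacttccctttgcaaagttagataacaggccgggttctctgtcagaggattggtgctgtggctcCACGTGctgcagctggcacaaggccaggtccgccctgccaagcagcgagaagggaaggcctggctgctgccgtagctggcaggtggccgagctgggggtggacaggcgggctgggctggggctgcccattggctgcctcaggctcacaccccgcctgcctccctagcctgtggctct
Per3 held 2 copies of the D-box TTATGTAA, 205 and 158 bases before the start (chr4:151044616-151044915, minus strand, D-boxes in capitals).
Per3: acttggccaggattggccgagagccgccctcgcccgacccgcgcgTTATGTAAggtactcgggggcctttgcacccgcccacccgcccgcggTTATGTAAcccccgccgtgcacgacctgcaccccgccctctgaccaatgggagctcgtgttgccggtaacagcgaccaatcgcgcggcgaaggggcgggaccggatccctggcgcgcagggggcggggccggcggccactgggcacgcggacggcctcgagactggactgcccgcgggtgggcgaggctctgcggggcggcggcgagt
Arntl held 1 ROR element AGGTCA, 31 bases after the start (chr7:113207261-113207560, plus strand, element in capitals).
Arntl: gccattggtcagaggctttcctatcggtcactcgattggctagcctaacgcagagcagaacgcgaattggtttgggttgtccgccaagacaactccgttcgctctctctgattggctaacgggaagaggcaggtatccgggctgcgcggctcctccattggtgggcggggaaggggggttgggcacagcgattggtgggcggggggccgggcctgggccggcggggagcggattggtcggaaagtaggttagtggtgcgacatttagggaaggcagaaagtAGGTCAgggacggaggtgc

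Over both strands, a CACGTG was present in 7.15% of the 32851 windows in that table, a TTATGTAA in 0.938% and an AGGTCA in 16.3%. Of the 27 clock genes examined, 22 had a window (28 windows in all). The E-box letters were in 7 of these 22 genes, the D-box letters in 1 and the ROR element letters in 7. A gene counted if any of its windows held the letters, whereas the percentages are per window, so the 2 are not directly comparable. Tef and Arntl have 2 windows each, and the window with the most copies is shown above. Among the 8 clock genes with a window that were higher in the libraries with high Dbp (Dbp included), 3 held an E-box, 1 a D-box and none a ROR element. Among the 4 that were lower, 1 held an E-box and 2 (Arntl and Leo1) a ROR element. Among the 10 that overlapped, 3 held an E-box and 5 a ROR element. The window of Dbp held none of the 3 motifs. A match describes the letters only, and elements outside these windows were not searched.

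The division by Dbp was accompanied by opposite levels of the 2 arms of the clock. In whole tissue, fewer cells of a type and less RNA per cell cannot be told apart. Apart from Dbp itself, 26 clock genes were measured, 12 of the core loop and 14 further output genes. Scaled as log2 CPM, 7 of them were higher in all 4 libraries with high Dbp than in any of the 8 others (Per3, Cry2, Nr1d1, Tef, Ciart, Bhlhe41 and Usp2), 4 were lower in all 4 (Arntl, Npas2, Lonrf3 and Leo1), and 15 overlapped. Over all 12587 genes, 530 (4.21%) were higher without overlap, 295 (2.34%) were lower, and 6.55% did either, against 42.3% of the clock genes. Dbp is driven by the same loop, and the lists were chosen with earlier results of these data known. The contrast of these shares is therefore a description only. For each gene the difference between the classes was also estimated within groups, as the coefficient of Dbp class in an edgeR fit that holds the 4 diet and genotype means apart. This difference rests on the 3 groups that hold both classes, and its median over all genes was -0.0271 on the log2 scale, with 47.5% of genes above 0. The median was -0.12 over the core loop (5 of 12 genes positive) and 0.56 over the output list (10 of 15, Dbp included), whose members have opposite phases.

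**Figure D1:**
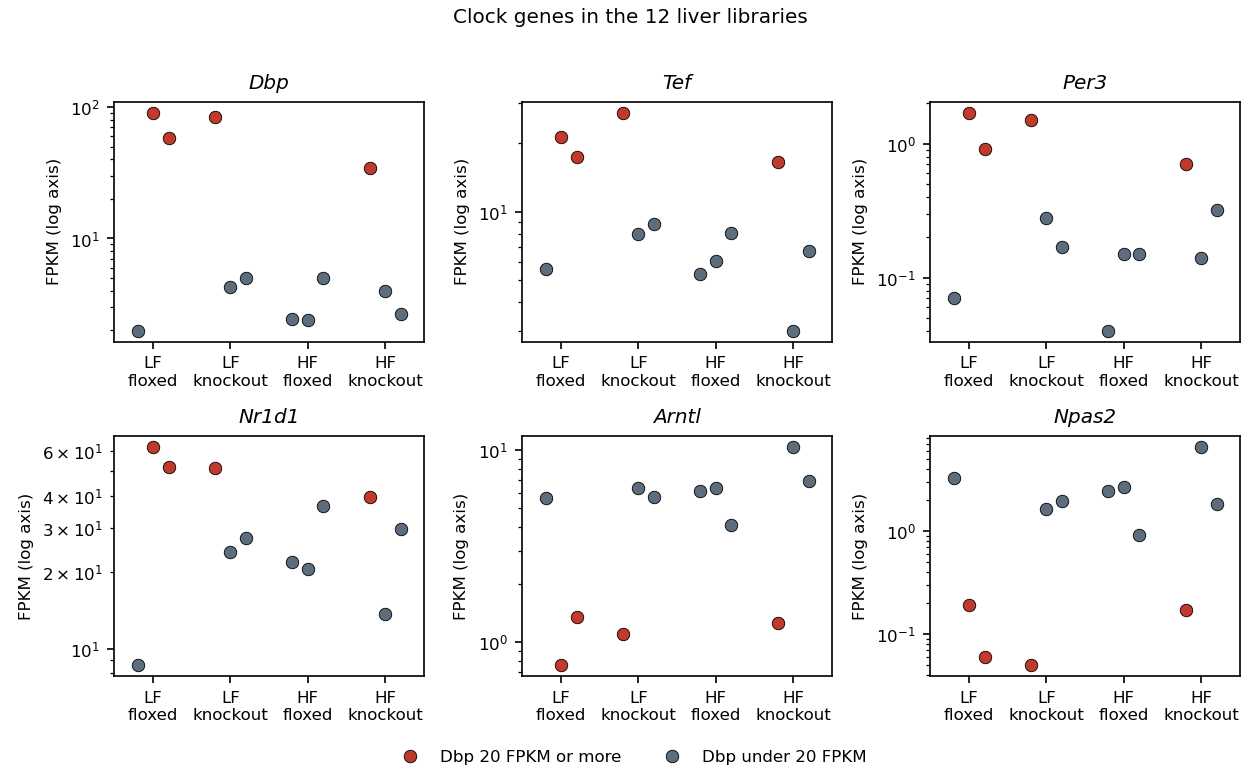
Level of 6 clock genes in each of the 12 libraries (FPKM on a log axis), by group, with the 4 libraries of high Dbp in red and the 8 of low Dbp in grey. In each panel the red points lie wholly above (Dbp, Tef, Per3, Nr1d1) or wholly below (Arntl, Npas2) the grey ones, on both diets.

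Dbp stood at 90.82 FPKM in LF floxed 2, 57.85 in LF floxed 3, 84.17 in LF knockout 1 and 34.14 in HF knockout 1. In the 8 other libraries it ran from 1.98 (LF floxed 1) over a median of 3.31 to 5.03 FPKM (LF knockout 3). These are the values that chose the classes; the high HF library was the lowest of its class. Dbp overlaps Sphk2, a sphingosine kinase gene, on the reference annotation, and whether the authors counted by strand is not given in the sources used here, so reads of the 2 genes may not be fully apart. Sphk2 was likewise higher in the 4 libraries, at 20.41 to 22.31 FPKM against 13.48 to 16.40, a log2 difference of 0.66, far smaller than that of Dbp (4.37).

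Arntl, the source of BMAL1, was the mirror of Dbp. It stood at 0.76, 1.36, 1.10 and 1.26 FPKM in LF floxed 2, LF floxed 3, LF knockout 1 and HF knockout 1, and at 4.09 (lowest), 6.23 (median) and 10.43 FPKM (highest) in the 8 others. The groups did not overlap, and the group-adjusted level was 5.22-fold lower where Dbp was high. The log2 differences were -2.45 within LF floxed, -2.24 within LF knockout and -2.37 within HF knockout, nearly equal in the 3 groups.

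Npas2, which can take the place of CLOCK beside BMAL1, had the largest group-adjusted difference of the 27 clock genes. It stood at 0.19, 0.06, 0.05 and 0.17 FPKM in the same order of the 4 libraries, against 0.93, 2.22 and 6.64 FPKM (lowest, median, highest) in the 8. The difference was -4.66 on the log2 scale. At so low a level in the 4 libraries its size depends on the scale, and it was -1.79 on log2(FPKM + 1). Clock itself overlapped in CPM (log2 difference -0.75), but its FPKM values did not: 1.61 to 2.26 where Dbp was high and 2.64 to 4.06 where it was low.

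Of the Per and Cry genes, Per3 had the largest positive difference. It stood at 1.71, 0.91, 1.5 and 0.70 FPKM in LF floxed 2, LF floxed 3, LF knockout 1 and HF knockout 1, against 0.04, 0.15 and 0.32 FPKM (lowest, median, highest) in the 8 others, a 7.51-fold higher group-adjusted level. Its 2 relatives did not separate the classes. Per1 ran from 2.09 to 4.80 FPKM in the 4 libraries and from 0.54 to 3.28 in the 8, and Per2 from 0.81 to 1.61 and from 0.85 to 2.17. The 2 cryptochromes pointed in opposite directions: Cry2 had a difference of 0.77 and did not overlap in CPM (in FPKM it did, at 4.66 to 8.04 against 3.09 to 4.92), whereas Cry1 had a difference of -1.64 and overlapped only because LF knockout 1, at 2.89 FPKM, lay above the lowest of the 8, at 2.27. The 3 other libraries with high Dbp had Cry1 at 0.81 to 1.26 FPKM.

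Nr1d1, which encodes REV-ERB alpha, the repressor of Arntl, stood at 62.60, 52.19, 51.61 and 39.63 FPKM in the 4 libraries in the same order. In the 8 others it ran from 8.61 (LF floxed 1) over a median of 23.03 to 36.40 FPKM (HF floxed 3). The classes were close at their edges, HF knockout 1 against HF floxed 3, and the difference of 1.66 was largest within LF floxed (2.67) and smaller within LF knockout (1.13) and HF knockout (1.36). Nr1d1 overlaps Thra, the thyroid hormone receptor alpha gene, whose own difference was 0.38. Nr1d2, for REV-ERB beta, was positive in all 3 groups (1.77, 1.37 and 0.33) but overlapped, because HF knockout 1 had only 4.07 FPKM. Rora, for an activator that binds the same elements, overlapped, with a difference of -0.24.

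Tef, a PAR bZIP factor like Dbp, stood at 21.28, 17.45, 27.28 and 16.45 FPKM in the 4 libraries, against 2.99, 6.41 and 8.81 FPKM (lowest, median, highest) in the 8. No values overlapped, and the difference was of like size in the 3 groups (1.71, 1.82 and 2.23 on the log2 scale). Hlf, the third member of the family, did not follow: it ran from 6.27 to 8.95 FPKM in the 4 and from 2.38 to 8.62 in the 8, a difference of 0.22. Nfil3, their competitor, was lower in the libraries with high Dbp on LF diet (log2 differences of -1.27 and -0.95) and not within HF knockout (0.49), where HF knockout 2 had 8.22 FPKM, and it overlapped.

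Usp2, a deubiquitinase gene with strong daily rhythm in liver, stood at 4.77, 2.95, 8.80 and 2.34 FPKM in the 4 libraries and at 0.21, 0.76 and 0.99 FPKM (lowest, median, highest) in the 8, a 6.64-fold higher level. Ciart stood at 1.19, 1.01, 1.39 and 0.59 FPKM in the 4 and at 0.13, 0.25 and 0.58 in the 8. Bhlhe41, for the repressor DEC2, stood at 0.92, 0.30, 0.50 and 0.25 FPKM against 0.02, 0.05 and 0.15. All 3 were apart between the classes, but the margin of Ciart was 0.59 against 0.58 FPKM, and Bhlhe41 was scarce throughout. Without LF knockout 1 the difference of Ciart was 1.15 in place of 1.66.

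On the side of Arntl, Lonrf3, a RING finger gene, stood at 0.16 to 0.31 FPKM in the 4 libraries and 0.48 to 1.16 in the 8 (log2 difference -1.64). Leo1, for a subunit of the transcription elongation complex PAF1, stood at 2.35 to 3.77 FPKM against 6.09 to 8.27 (difference -1.01). Neither overlapped. The other output genes did overlap: Bhlhe40 (difference 0.65), Wee1, the mitotic inhibitor kinase (0.56), Nampt, of NAD synthesis (-0.18), Cys1 (0.25), Tspan4 (0.82) and Elovl3. Elovl3, a fatty acid elongase gene known for large daily swings in liver, had differences of -2.18 within LF floxed, -1.24 within LF knockout and 3.99 within HF knockout, where HF knockout 2 had 0.14 FPKM.

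**Figure D2:**
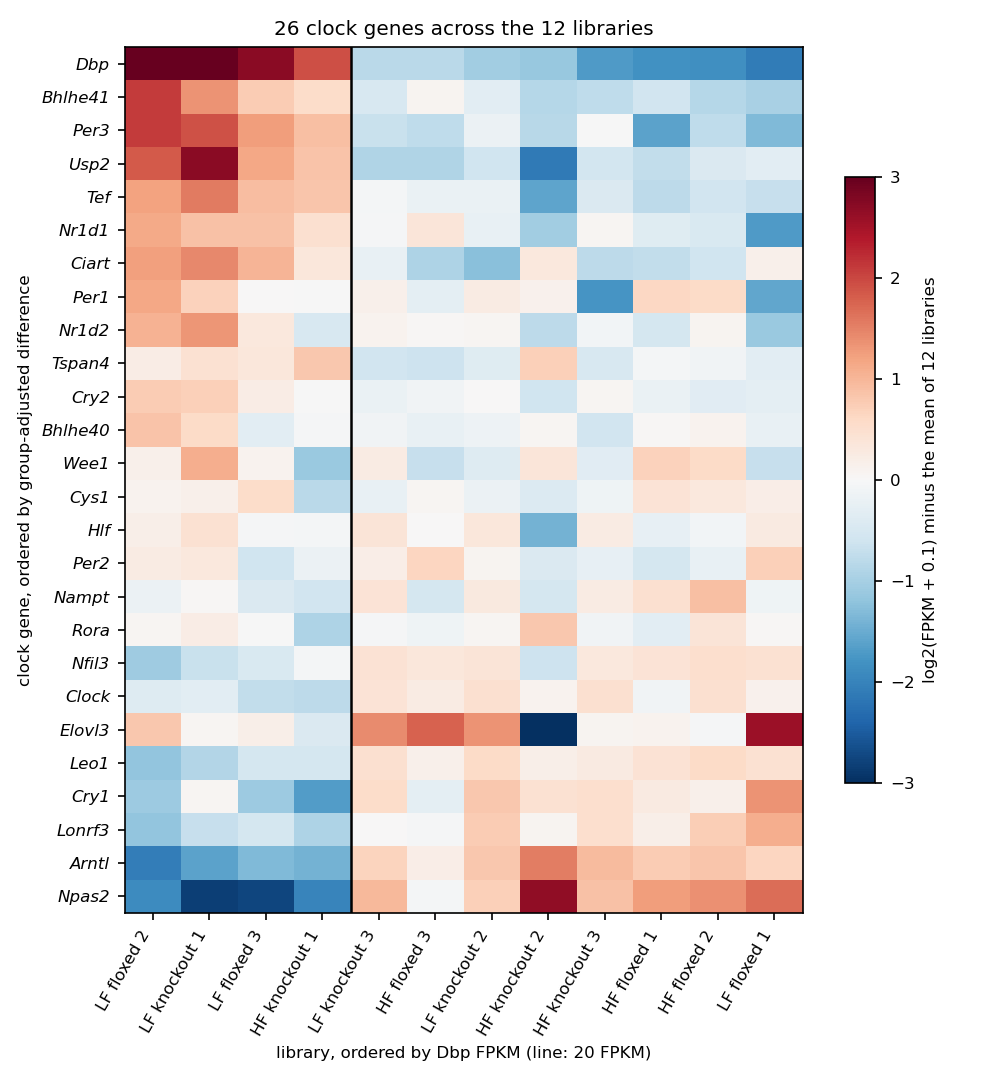
Level of 26 of the 27 clock genes (Dbp included) as log2(FPKM + 0.1) minus each gene's mean over the 12 libraries (colour, red above and blue below the mean, shown up to 3), with libraries in columns from highest to lowest Dbp and genes in rows by group-adjusted difference. The upper rows are red and the lower rows blue to the left of the line at 20 FPKM of Dbp, and HF knockout 1, the 4th column, is the palest of the 4.

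The 4 libraries were not alike among themselves. In 8 of the 11 clock genes without overlap, HF knockout 1 was the nearest of the 4 to the low class, and in the other 3 it was LF floxed 3. Among the 8 libraries with low Dbp, the farthest from the high class was HF knockout 2 in 5 of the 11 genes, LF floxed 1 in 4, and LF knockout 2 and HF floxed 1 in 1 each. When each library was left out in turn, 42.3 to 46.2% of the clock genes were without overlap. Without HF knockout 2 and with 1 library of each near-identical pair, 8 were higher and 4 lower. Leaving libraries out can only keep or add genes without overlap, so neither result could have fallen below that of the full set. Over all genes the counts rose as well, to 533 to 879 higher and 309 to 558 lower with 1 library left out.

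The labelled diet and genotype were tested on the same libraries with edgeR's quasi-likelihood test and Benjamini-Hochberg adjustment over all genes. For HF against LF averaged over genotypes, 1 gene passed at 5% (0.00794% of those tested), and it was no clock gene: Lcn2, for the iron-binding protein lipocalin 2, with a log2 difference of 4.50 (SE 0.50, adjusted p = 0.0201). It no longer passed when LF floxed 1, 2 or 3, LF knockout 2 or 3, or HF floxed 1 or 2 was left out, or with the near-identical pairs averaged (adjusted p = 0.485, edgeR). The values of Lcn2 overlapped between the Dbp classes, at 4.37 to 797.17 FPKM in the 4 libraries and 1.63 to 707.42 in the 8. DESeq2 called 403 genes for diet, and 1918 genes had an unadjusted p under 0.05 in edgeR, against 629 expected by chance. None of the 27 clock genes passed for diet with either tool, and the adjusted p of the 26 other than Dbp ran from 0.29 to 0.991 in edgeR, with 6 at an unadjusted p under 0.05.

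Dbp itself had a diet difference of -2.59 on the log2 scale (SE 1.05, adjusted p = 0.293, edgeR), since 3 of the 6 LF libraries and 1 of the 6 HF libraries were high. With Dbp class as a further term the diet difference was -0.43, and among the 8 libraries with low Dbp it was -0.03. The class is set by Dbp itself, so both of these smaller values follow largely from the rule and show nothing about diet. For Arntl the diet difference was 0.64 (SE 0.56, adjusted p = 0.607, edgeR), against 0.07 both with the class term and among the 8 libraries. The classes and the diets are unevenly crossed, so part of a diet difference in these genes cannot be told apart from the uneven crossing.

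For knockout against floxed averaged over diets, no gene passed at 5% in edgeR (0% of those tested, lowest adjusted p = 0.0776). In edgeR 405 genes had an unadjusted p under 0.05, against 629 expected by chance, and DESeq2 called 23. None of the 27 clock genes passed with either tool, and 1 of the 26 had an unadjusted p under 0.05 in edgeR. Dbp had a genotype difference of 0.77 (adjusted p = 0.994, edgeR), whose sign depends on single libraries: it was -0.65 without LF knockout 1 and -0.39 without HF knockout 1.

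Outside the clock lists, the 12 genes with the largest positive and the 12 with the largest negative difference among those without overlap are described next. Their adjusted p for diet ran from 0.2 to 0.984 and for genotype from 0.994 to 1 (edgeR). The genes were chosen for a split that falls inside 3 of the 4 groups, which widens the spread that these tests use. High adjusted p values thus follow in part from the choice and do not show that diet or genotype has no effect on these genes. Over all genes, 225 (1.79%) were at least 2-fold higher in the group-adjusted fit and 623 (4.95%) at least 2-fold lower, and 49 and 97 of these were also without overlap.

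Upp2, a uridine phosphorylase gene, was the leading gene of the PAR bZIP and drug metabolism list. It stood at 60.61, 38.16, 67.75 and 37.42 FPKM in LF floxed 2, LF floxed 3, LF knockout 1 and HF knockout 1, against 2.05, 12.6 and 16.52 FPKM (lowest, median, highest) in the 8, a 4.78-fold higher level. Por, which encodes the reductase that supplies electrons to cytochrome P450 enzymes, stood at 60.83, 66.44, 92.50 and 96.03 FPKM against 27.07, 38.7 and 57.11. These 2 were higher without overlap, and the other 10 of that list, which are P450, nuclear receptor and heme synthesis genes and Ces1g, overlapped (7 of 12 positive, median 0.50).

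Igfbp2, for an insulin-like growth factor binding protein secreted by liver, stood at 488.57, 697.71, 317.36 and 448.72 FPKM in the 4 libraries and at 50.83, 108 and 263.96 (lowest, median, highest) in the 8. The classes did not overlap, and the log2 difference was above 1 in all 3 groups (1.18, 1.81 and 2.88). Slc2a5, for the fructose transporter GLUT5, stood at 5.82, 3.27, 4.49 and 3.53 FPKM against 0.38, 1.08 and 2.35. Syne4, for a nuclear envelope protein, stood at 0.71 to 2.76 FPKM against 0.12 to 0.65. The differences were 1.92 for Igfbp2, 1.86 for Slc2a5 and 2.58 for Syne4, the last 1.75 without HF knockout 1.

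Mup10, of the major urinary protein family, stood at 1479.86, 2036.15, 1016.77 and 5840.56 FPKM in the 4 libraries, against a range of 0 to 416.70 and a median of 2.31 FPKM in the 8. HF floxed 1 had the 416.70 FPKM, whereas the near-identical library HF floxed 2 had 0. The group-adjusted difference was 10.7, and 5.91 without group terms. The copies of this family are nearly identical, so the share of reads given to Mup10 is uncertain. Eif3j2 (difference 1.79) and Hmga1b (1.67) also have near-identical copies, and Hmga1b overlapped in FPKM and had a difference of 2.39 without HF knockout 1.

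Ang and Rnase4, secreted ribonucleases of 1 shared locus whose annotations overlap, were higher in the 4 libraries but depended on 1 of them. Rnase4 stood at 661.67, 534.77, 615.21 and 1505.40 FPKM, against 10.52, 330 and 402.47 (lowest, median, highest). Without HF knockout 1 the difference was 0.80 in place of 1.76 for Rnase4 and 0.63 in place of 1.82 for Ang, and without HF knockout 2 that of Ang was 1.23. Without LF floxed 1 they were 2.40 and 2.59. Cnmd (1.85, and 1.12 without HF knockout 1 or 2.47 without LF floxed 1), Rsc1a1 (1.83), whose annotation overlaps Ddi2, and Pcsk4, a proprotein convertase gene (1.62, overlapping in FPKM), complete the 12.

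Cdkn1a, for the cell cycle inhibitor p21, led the 12 lower genes. It stood at 0.98, 1.21, 2.53 and 2.05 FPKM in LF floxed 2, LF floxed 3, LF knockout 1 and HF knockout 1, against 6.22, 16.1 and 57.79 FPKM (lowest, median, highest) in the 8, a 7.70-fold lower level. The classes were far apart, and the difference within each group was similar (-2.51, -2.52 and -3.42). Slc1a4, a neutral amino acid transporter gene, stood at 0.91, 0.94, 0.85 and 1.5 FPKM against 2.28, 5.15 and 11.16. Its values did not overlap either, with differences of -1.73, -2.68 and -1.94 in the 3 groups.

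Tubb2a, a beta tubulin gene, stood at 27.54, 37.29, 73.22 and 23.94 FPKM in the 4 libraries and at 133.74, 174 and 499.57 in the 8 (difference -1.91). Tsc22d1, for a transcriptional regulator, stood at 31.73, 28, 20.93 and 33.42 FPKM against 64.44, 77.0 and 134.73 (difference -1.58). Both were abundant and clearly apart. Ppard, the nuclear receptor PPAR delta (-1.60), Chka, choline kinase alpha (-1.47), Gbp6, a guanylate-binding protein gene (-1.76), and Cmpk2, a mitochondrial nucleotide kinase gene (-1.57), were lower without overlap too. Cavin2, a caveola gene, had -1.45, and -2.09 without LF knockout 1.

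Nid1, a basement membrane gene, and Acta2, smooth muscle actin, overlapped in FPKM though not in CPM. Nid1 ran from 0.48 to 1.73 FPKM in the 4 libraries and from 1.71 to 88.68 in the 8. Its difference of -1.60 was -0.49 without HF knockout 1, -3.35 without LF knockout 1 and -2.31 without LF floxed 1. Acta2 had a difference of -1.57.

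**Figure D3:**
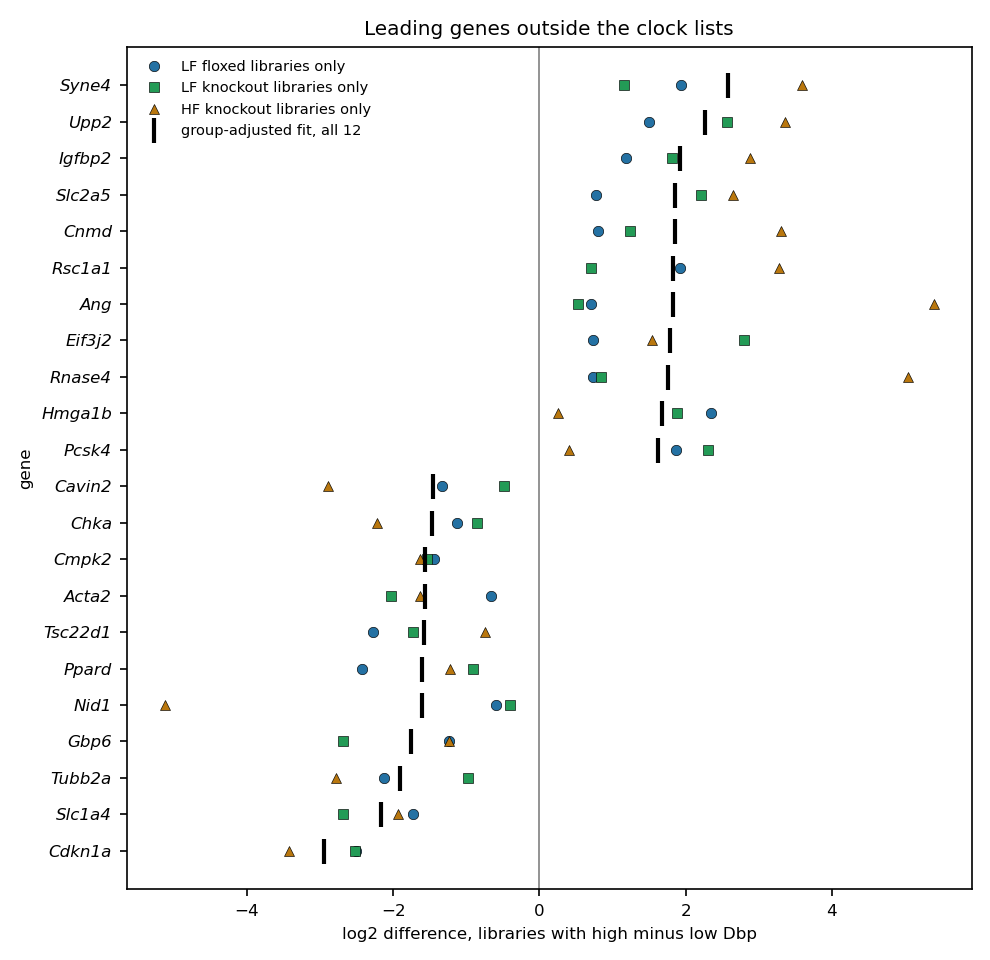
Log2 difference between libraries with high and low Dbp for 11 of the 12 higher and 11 of the 12 lower genes outside the clock lists, in each of the 3 groups that hold both classes (symbols) and in the group-adjusted fit (bars); Mup10 is off this scale and not drawn. All symbols of a gene lie on the same side of 0, as the choice of genes without overlap requires, and those of HF knockout lie farthest out for Ang (5.39), Rnase4 (5.04) and Nid1 (-5.12).

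Gene lists for feeding, fasting, hormones and stress were compared across the same division, and their counts are to be read beside the 6.55% of all genes without overlap in either direction. Of 18 genes induced by feeding, none was higher without overlap and 2 were lower. Ppp1r3b, which targets a phosphatase to glycogen, stood at 19.30, 16.31, 23.18 and 29.12 FPKM in the 4 libraries against 40.64, 51.1 and 96.91 (lowest, median, highest) in the 8, with a difference of -1.31 that was -0.67 without LF floxed 1. Pdgfc, a growth factor gene, stood at 0.45 to 0.85 FPKM against 1.22 to 2.49 (difference -1.22). The remaining 16, lipogenic enzymes and their regulators among them, overlapped, and 13 of the 18 were positive (median 0.23). The summed level of the list ran from 481.42 to 6251.08 FPKM in the 4 libraries and from 1281.27 to 4591.73 in the 8.

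Of 18 genes induced by fasting, 1 was higher without overlap and none lower (14 positive, median 0.21). It was Pck1, for the gluconeogenic enzyme PEPCK, at 566.88, 677.49, 690.51 and 458.49 FPKM against 53.46, 313 and 374.19 (lowest, median, highest), a difference of 1.46. Thus neither list separated the classes as a whole, and the members that did were few. Of 14 genes responsive to glucocorticoids, Sds, serine dehydratase, was higher (0.95, with overlap in FPKM) and Cdkn1a lower, and 12 overlapped (8 positive, median 0.27).

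Of 20 genes of cholesterol synthesis, none was without overlap (15 positive, median 0.34), and Fdps, of farnesyl diphosphate synthesis, had the largest difference, at 1.57. That of Fdps was 2.32 within LF floxed and 2.24 within LF knockout, but -0.16 within HF knockout, where HF knockout 2 had 338.16 FPKM. Of 14 acute phase genes, all 14 were positive (median 0.76), but Orm1, for orosomucoid 1, was the only one without overlap. Orm1 stood at 809.27, 944.26, 795.27 and 2755.91 FPKM against 225.86, 576 and 784.67 (lowest, median, highest), and its difference of 1.42 was 0.64 without HF knockout 1. That library had the highest summed level of the list, at 32777.41 FPKM, against 10418.37 to 11194.67 in the 3 other libraries with high Dbp and 7940.37 to 15229.64 in the 8.

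The clock kinase and ligase list (8 genes, median -0.07), the heat shock and temperature list (12, median -0.16), the immediate early list (16 tested of 17, median -0.35) and the growth hormone and sex-biased list (17 tested of 20, median 0.27) had no member without overlap. The largest differences in them were -0.73 for Timeless, -0.66 for Hspa1b, -1.5 for Btg2 and -2.41 for Cyp2b13, which has near-identical copies.

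**Figure D4:**
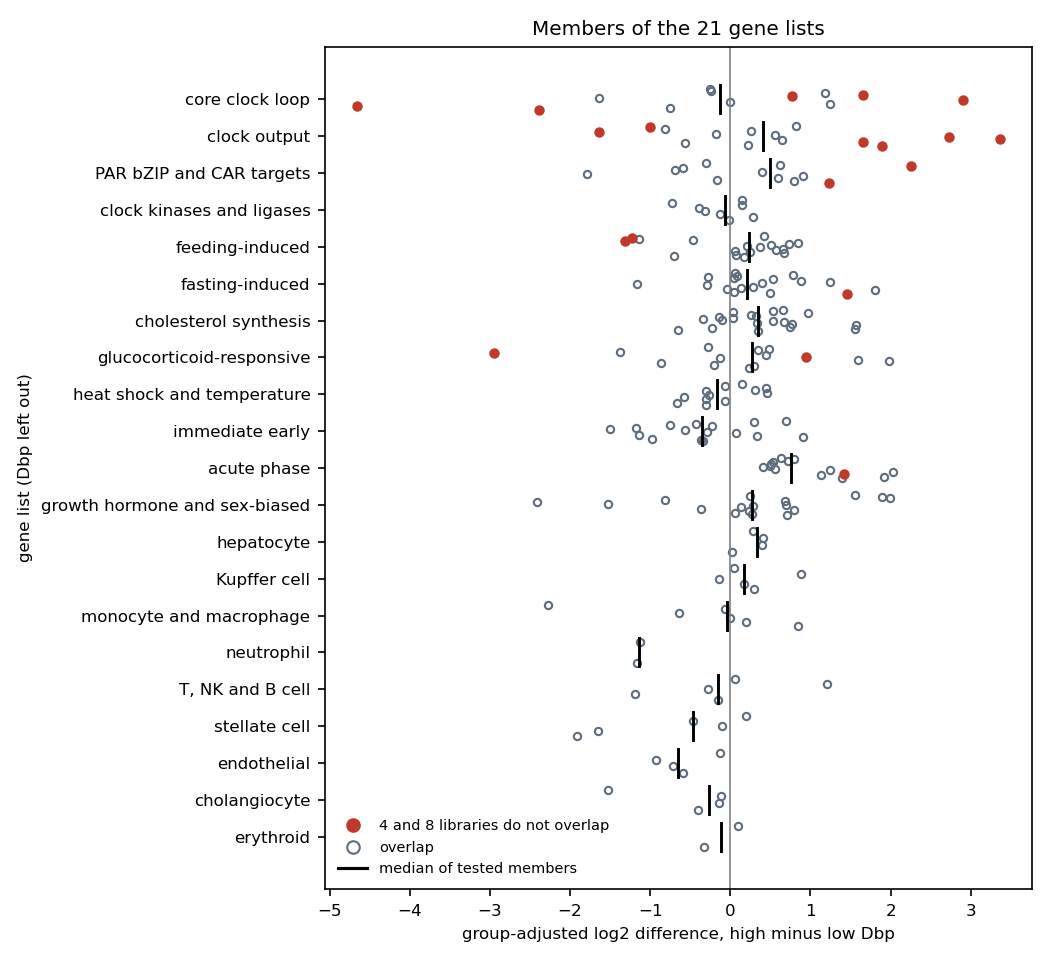
Group-adjusted log2 difference of each tested member of the 21 gene lists (points), with the list's median (bar); filled red points are genes whose values do not overlap between the 4 and the 8 libraries. Red points are most frequent in the 2 clock lists at the top, and none is present in the 9 cell type lists at the bottom.

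Markers of the cell types in liver were listed to see what else moved with the division. None of the tested markers of hepatocytes (4), Kupffer cells (5), other macrophages (6), neutrophils (2 of 5), lymphocytes (5), stellate cells (5), endothelium (4), bile duct cells (4) or erythroid cells (2 of 3) was without overlap in CPM. The hepatocyte markers were abundant in every library, with a summed level of 47305.78 to 71467.41 FPKM in the 4 and 39208.33 to 103043.10 in the 8, and all 4 were positive (median 0.34). Of the Kupffer cell markers 4 of 5 were positive (median 0.17), and both tested neutrophil markers were negative (median -1.14). The summed neutrophil level was 1.65 to 9.87 FPKM in the 4 and 2.36 to 391.48 in the 8, the highest in HF knockout 3. S100a8 had differences of 0.96 within LF floxed, 0.10 within LF knockout and -2.04 within HF knockout. All 4 endothelial markers were negative (median -0.65), with summed levels of 17.46 to 43.36 and 34.74 to 55.68 FPKM. All 4 bile duct markers were negative too, and only their summed level did not overlap, at 1.96 to 3.12 FPKM in the 4 and 3.70 to 11.76 in the 8. Sox9, at 0.76 to 1.29 against 1.59 to 7.63 FPKM, was apart in FPKM. Of the stellate cell markers 4 of 5 were negative (median -0.46), with summed levels of 36.14 to 94.69 and 51.57 to 181.65 FPKM. The part of these cell types in the gene differences above was not tested.

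Gene length moved with the division as well. The 530 genes that were higher had a median length of 1534 bases and the 295 that were lower 4501 bases, against 2868 for all genes. In 20 bins of length the median difference ran from 0.403 (bin of median length 716 bases) to -0.327 (8970 bases). Within libraries, the median log2 CPM of genes over 5000 bases minus that of genes under 1000 was -0.68, -1.08, -0.71 and -1.26 in LF floxed 2, LF floxed 3, LF knockout 1 and HF knockout 1, and from -0.69 to 0.15 in the 8 others. By this difference of medians the 4 libraries leaned more to short genes than most of the 8, with LF floxed 2 just inside their range. Shares of counts overlapped: genes under 1000 bases held 12.44 to 20.62% in the 4 and 7.81 to 18.92% in the 8. Genes over 5000 bases held 6.29 to 7.72% and 7.45 to 9.6%. The part of length in the gene differences was not tested beyond the values that follow.

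After each library was centred on the median of each length bin, an alternative chosen after seeing the data, 359 genes were higher and 182 lower without overlap, of which 247 and 129 were among the first set. In FPKM the split turned to 204 higher and 511 lower (28.5% higher, against 64.2% in CPM), with 182 and 242 shared. The median difference over all genes was then -0.102 on log2(FPKM + 1). The clock genes kept a count of 7 higher and 4 lower after length centring, though Lonrf3 was replaced by Clock, and had 6 higher and 5 lower in FPKM. Among the other genes above, Cnmd, Hmga1b, Acta2, Ppp1r3b and Sds overlapped after length centring.

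**Figure D5:**
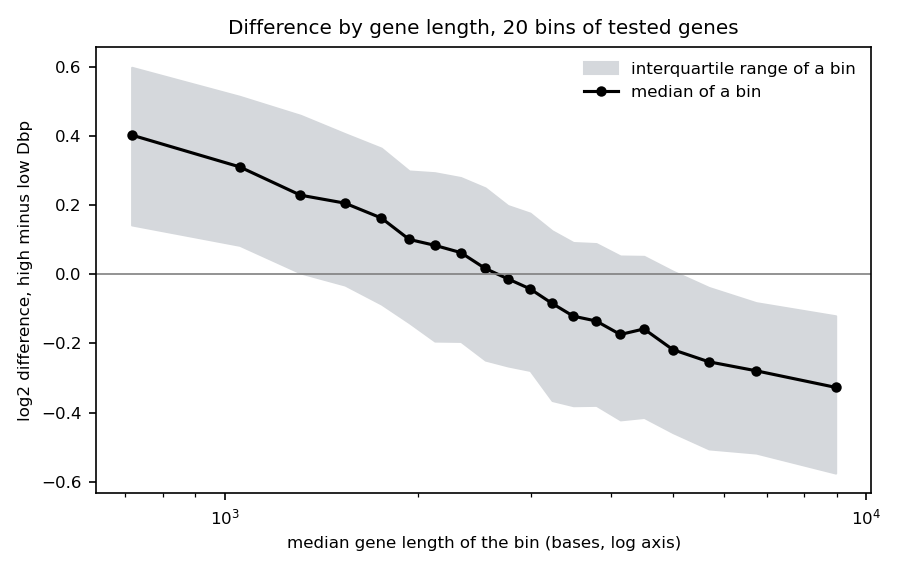
Median group-adjusted log2 difference (points and line) and the interquartile range of the genes (grey band) in 20 bins of tested genes, against the median gene length of the bin on a log axis. The median passes from 0.403 in the shortest to -0.327 in the longest bin.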

How the data were processed

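Total RNA of flash-frozen liver was sequenced in 12 libraries by BGI, per the labels' protocols. Each library came as a deposited table of estimated counts (expected counts, not scaled, per the file headers) and of FPKM values, which the authors had scaled to gene length and library size; the submitters' processing notes name mm9, and the aligner and counter were not given in the sources used here. Genes absent from a table were taken as 0, and unnamed loci (6.65 to 17.33% of counts) were left out.

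Estimated counts were rounded and fitted in edgeR 4.0.16 (R 4.3.3) with TMM scaling, filterByExpr and 4 group means. Values between Dbp classes were compared as log2 CPM (prior count 2) for overlap, and by a class term beside the group means, without a test. Diet and genotype were tested at 5%. Alternatives used DESeq2 1.42.0 and limma 3.58.1. The members, the 21 lists and the rules were chosen with earlier results of these data known. Named genes were the clock lists, the 12 leading genes in each direction (median of at least 1 FPKM in the higher class) and up to 2 members of each other list. Of the named genes, 2 are counted but not reported here by name. The fits were tested on simulated data, where 92.5% of 4-fold diet changes passed at 5%, with 8 false calls. The simulated libraries were drawn independently, without the near-identical pairs or the length differences seen here. These rates therefore do not carry over to the data.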

Additional observations from a re-analysis of the deposited data

Results flagged for a closer look

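In 7 of 54 sets of values tested (27 clock genes in 2 classes), 1 library stood outside the others by Dixon's criterion; chance flags about 1 in 20 such sets. Within the 4 libraries with high Dbp, Rora was 2.10 FPKM in HF knockout 1 and 4.06 to 4.79 in the others. Within the 8 with low Dbp, 5 of the genes had HF knockout 2 as the library apart. Hlf was 2.38 FPKM there (others 5.46 to 8.62), Nfil3 8.22 (15.71 to 18.02), Usp2 0.21 (0.63 to 0.99), Elovl3 0.14 (53.45 to 328.60) and Tspan4 38.52 (15.07 to 22.51). Bhlhe40 was 18.70 FPKM in HF knockout 3 and 23.58 to 29.75 in the others.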

How the results depend on the processing

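The 42 named genes without overlap, Dbp included, were recomputed under 21 alternatives. Of 882 differences, 854 moved by less than the spread between libraries, 28 by more (13 on log2(FPKM + 1)), and none changed sign. These genes were chosen for values apart between the classes, which largely fixes the sign, so the last count is no test of it. S100a8, which overlapped, had -1.17, but 1.00 without HF knockout 1 and 1.22 without HF knockout 3, where it stood at 176.38 FPKM. Counts moved more. Genes at least 2-fold higher and lower numbered 855 and 1991 without a filter on low counts, and 76 and 80 on log2(FPKM + 1). On log2(FPKM + 0.1) 398 were lower, without group terms 950, and after length centring 381. Leaving out single libraries gave 243 to 468 higher (most without HF knockout 1) and 420 to 1355 lower (most without LF floxed 1). Genes without overlap numbered 204 higher and 511 lower in FPKM, and 808 and 563 in the groups with both classes, where fewer libraries are compared. Fewer libraries also gave 554 lower without HF knockout 2 and with the near-identical pairs averaged, and 533 to 879 higher and 309 to 558 lower with 1 library left out (most without HF knockout 1 and LF floxed 1). Length centring left 182 lower.

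The diet count of 1 was 403 in DESeq2, 4 in the libraries with low Dbp, and 0 with the class term or with the pairs averaged; it was 0 to 7 with 1 library left out (7 without HF knockout 1). The genotype count of 0 was 23 in DESeq2, 3 with the class term, 3 in the libraries with low Dbp, 1 without a filter, and 0 to 8 with 1 library left out (8 without LF knockout 1). Most same-numbered libraries did not deviate together: of 18 such pairs, 3 correlated above 0.1 (r from -0.331 to 0.404). Deviations from means of 3 libraries cannot settle whether the numbers pair the libraries, and the main fit did not pair them. With the replicate number as a replicate block, 0 genes passed for diet, and the genotype difference of Dbp was -0.71. With 1 library left out it ran from -0.65 (without LF knockout 1) to 1.15, and was -0.39 without HF knockout 1. The causes of these shifts were not tested. The biological coefficient of variation was 34.8%, and with 3 libraries a group differences of diet or genotype may not be detectable, even large ones. For diet, Dbp had a log2 difference of -2.59 (adjusted p = 0.293) and Cyp2b13 one of 4.89 (adjusted p = 0.2, both edgeR), and neither passed. The lack of calls among the clock genes thus does not exclude a diet or genotype effect on them.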

Other observations

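Related genes, chosen after their values were seen, are given as counts; over all 12587 genes, 4.21% were higher and 2.34% lower without overlap, and 359 and 182 genes after length centring. Of 77 genes for cytosolic ribosomal proteins, 76 were positive (median 0.48, median length 708 bases) and 24 were higher without overlap, against 2 after length centring. Of 74 subunits of the respiratory chain and ATP synthase, 69 were positive and 19 were higher without overlap, against 3 after length centring. Of 24 collagen chains, 22 were negative (median -0.80) and Col4a1, Col6a3 and Col8a1 were lower without overlap, against 2 chains after length centring. Of 13 tubulin and actin genes (median length 1920 bases), 12 were negative (median -0.60), 3 (Acta2, Tuba1c and Tubb2a) were lower without overlap, and 4 after length centring.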
